A study of Mus musculus with 4 samples.

Results

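Leukocyte integrins were examined in cells of a mouse Th1 clone, interferon gamma producing CD4 helper T cells that descend from a single cell. The integrins are the 8 subunit genes Itgb2, Itgal, Itgb7, Itga4, Itgae, Itgb1, Itgav and Itgb3. They were followed through every probe set whose platform annotation names 1 gene symbol among them, which gave 15 of the 12488 probe sets on the array. The anergic group was the Th1 clone rendered unresponsive with antibody against CD3 bound to a plate (anergic arrays 1 and 2). The control group was the normal, quiescent clone (control arrays 1 and 2). Total RNA was made into biotin-labelled cRNA and hybridised to 1 array per sample. Nothing in the labels names separate cultures behind the arrays of a group. The p-values therefore reflect only how far these arrays differ, part of which may be technical. Both groups are cells of a clone kept in culture, not T cells of an animal.

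An integrin is a receptor made of 1 alpha and 1 beta chain that binds cell surface or matrix ligands, and the beta chain decides which alpha chains it can carry. On T cells the beta 2 chain pairs with the alpha L chain to form LFA-1, which binds ICAM molecules and holds the T cell to the antigen presenting cell. The alpha 4 chain pairs with beta 1 to form VLA-4, the receptor of VCAM-1 and fibronectin, or with beta 7 to form the gut homing receptor of MAdCAM-1. The beta 7 chain also pairs with alpha E, which binds E-cadherin on epithelium, and alpha V pairs with beta 1, beta 3 and other chains to bind vitronectin and latent TGF-beta. Chains are assembled into pairs before they reach the surface, and RNA levels of single chains do not give the level of a pair there.

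Intensities are on the deposited linear scale, 1 value per probe set and array. The 2% trimmed mean of all values was 500.3 on each array, and array medians were 134.2 and 175.8 in anergic cells and 146.5 and 191.2 in control cells. The number of arrays limits the precision, at 2 per group. Control array 2 stood apart in 9 bacterial spike-in probe sets, with a geometric mean of 1972, against 870.4 and 1014 on the anergic arrays and 948.9 on control array 1. Of 11 T cell marker genes on the array, 10 had a probe set above the filter on low values. Their 14 probe sets summed to 62667.8 and 58590.3 in anergic cells and to 73962.2 and 61415.6 in control cells. Of 12 tested, 0 passed and 4 had an unadjusted p under 0.05, a level that 11.3% of all tested probe sets reached: Ifng (0.86) and Cd3d (0.68) were higher by sign, and Thy1 (-0.60) and Zap70 (-0.48) lower.

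Among the integrins, the beta 2 chain gene was higher and the beta 7 chain gene lower in anergic cells, and the genes of their alpha partners, alpha L and alpha 4, did not pass the test. The bright alpha V probe set was about 2.0-fold higher without passing. Differences were tested with limma on log2(intensity + 29.26), over the 7453 probe sets whose mean log2 value lay above the 40th percentile, which corresponds to an intensity of about 92.4. Of the 15 integrin probe sets 12 passed this filter, covering 6 genes, and the 3 probe sets of Itgae and Itgb3 did not. By limma with Benjamini-Hochberg adjustment at 0.05, 1 integrin probe set was higher, 1 was lower and 10 were not called. Over all tested probe sets 1.34% were called, 0.912% as higher and 0.429% as lower. Over all probe sets there were 100 calls. This number was 43 when anergic array 1 was left out, 61 for anergic array 2, 283 for control array 1 and 344 for control array 2. In 7 of the 12 integrin probe sets the arrays of the groups did not overlap, 4 with anergic cells higher and 3 with them lower. This held for 40.3% of all tested probe sets, 16.8% with anergic cells higher and 23.5% with them lower. The median log2 difference of the 12 was -0.20, against -0.09 for all tested probe sets.

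**Figure D1:**
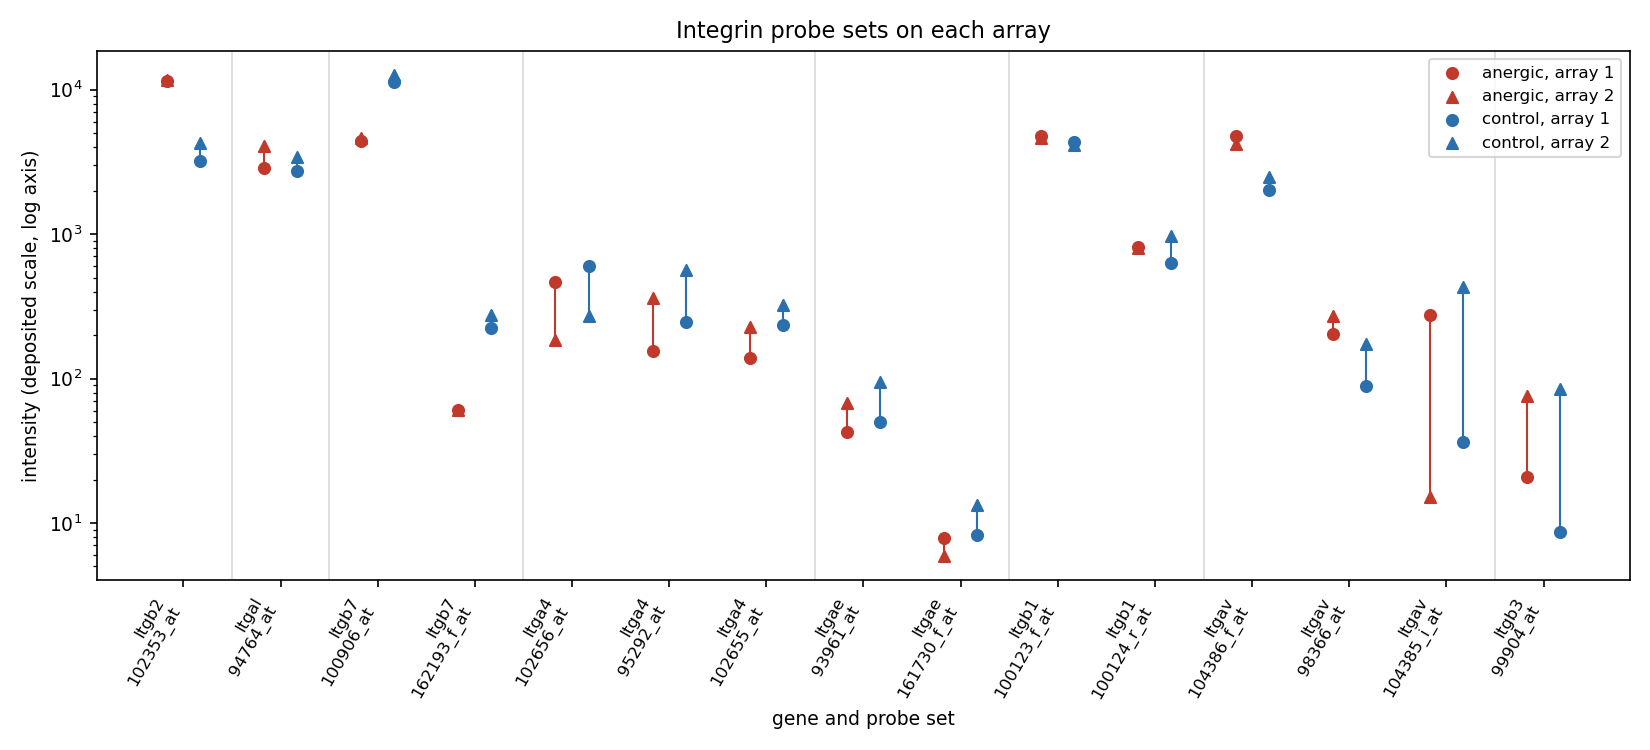
Deposited intensity (log axis) of each of the 15 integrin probe sets, with anergic arrays in red to the left of control arrays in blue; circles are arrays numbered 1, triangles arrays numbered 2, and lines join arrays of a group. Itgb2 lies higher in anergic cells and the 2 Itgb7 probe sets lie lower, while Itga4, Itgae and Itgb3 spread widely within groups.

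Itgb2, on mouse chromosome 10, encodes the beta 2 chain (CD18) that all leukocyte-specific beta 2 integrins share. Its only probe set, 102353_at, was at 11411.5 and 11693.0 on the anergic arrays, against 3227.1 and 4273.9 on the control arrays. The anergic arrays lay close together and both far above the control arrays. The means were 11552 ± 199 in anergic cells and 3750.5 ± 740.2 in control cells (SD, n = 2 each), and the log2 difference was 1.63 ± 0.23 (SE, limma adjusted p = 0.0156), a 3.09-fold rise. The call was lost without anergic array 1 or 2 (adjusted p = 0.128 and 0.107), with differences of 1.65 ± 0.38 and 1.61 ± 0.39 (SE), and when the spread was shared without an intensity trend (adjusted p = 0.111). With 2 arrays per group the smallest two-sided p of an exact permutation test is 0.33, and the calls rest on the spread that limma shares between probe sets.

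Itgal, on chromosome 7, encodes the alpha L chain (CD11a), the partner of the beta 2 chain in LFA-1. Probe set 94764_at was at 2862.7 and 4088.1 in anergic cells, against 2717.2 and 3402.0 in control cells. The groups overlapped, and within each group the array numbered 2 was the brighter. The log2 difference was 0.17 ± 0.26 (SE, limma adjusted p = 0.903), with a 95% interval of -0.43 to 0.77. The interval of Itgb2 was 1.11 to 2.15. Whether the changes of the 2 genes differ was not tested.

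The beta 2 chain also has myeloid partners. Itgam, the alpha M chain gene of Mac-1, was at 8.2 and 33.6 in anergic cells against 12.3 and 17.4 in control cells, below the filter. It is named for its pairing with the beta 2 chain and was chosen after its values were seen. Adgre1, Lyz2, Fcgr3, Csf1r, Mpeg1, Cd83, Tln1, Fermt3, Tgfbr1, Tgfbr2 and Col1a2 below were also chosen after their values were seen. Itgax, the alpha X chain gene of CD11c, was at 93.5 and 131.3 in anergic cells and at 43.7 and 146.7 in control cells (adjusted p = 0.919). Of 12 macrophage and dendritic cell marker genes on the array, 5 had a probe set above the filter. Their 20 probe sets summed to 1825.8 and 2665.8 in anergic cells and to 1837.3 and 2335.4 in control cells. The macrophage marker gene Adgre1, which encodes F4/80, was below the filter at its 2 probe sets. It was at 36.4 and 36.9 in anergic cells against 24.0 and 20.2 in control cells at 103507_at. At 161377_at it was at 21.1 and 13.3 against 2.9 and 7.3. The anergic arrays were thus above the control arrays at each. The lysozyme gene Lyz2 was at 11.7 and 11.4 in anergic cells at its brighter probe set, against 129.1 and 73.3 in control cells. Cd68, a lysosomal glycoprotein gene used as a macrophage marker, was the only gene of this list that passed. It was at 497.6 and 531.5 in anergic cells against 71.0 and 91.3 in control cells at probe set 103016_s_at (log2 difference 2.31, adjusted p = 0.0216), and at 6.0 and 3.1 against 11.1 and 6.5 at the other. Other genes of this list went both ways. Fcgr3 was at 58.5 and 79.3 in anergic cells against 27.1 and 32.1 in control cells. Csf1r was higher at 104354_at and overlapped at its other probe set. Mpeg1 was at 93.8 and 155.8 in anergic cells against 213.6 and 320.0 in control cells at its tested probe set, and higher at the other. Both Cd83 probe sets were lower in anergic cells, and the remaining genes overlapped. The part of other cells in the Itgb2 difference was not tested. In bulk RNA, fewer cells of a type and less RNA per cell cannot be told apart.

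Itgb7, on chromosome 15, encodes the beta 7 chain of the mucosal homing integrins. Probe set 100906_at was at 4429.2 and 4632.3 in anergic cells, against 11349.4 and 12669.1 in control cells. The groups stood apart, and each pair of arrays lay close together. The means were 4531 ± 144 in anergic cells and 12009 ± 933 in control cells (SD, n = 2 each), so that anergic cells held 0.377 of the control intensity. The log2 difference was -1.40 ± 0.21 (SE, limma adjusted p = 0.0205). The second probe set of the gene, 162193_f_at, was dimmer, at 60.7 and 60.9 in anergic cells against 222.3 and 276.3 in control cells. It differed in the same direction, by -1.62 ± 0.42 on the log2 scale (SE), with an adjusted p of 0.147. Its suffix marks probes that can also bind related transcripts, as in 100123_f_at of Itgb1 and 104386_f_at of Itgav, and its anergic values lie below the intensity that corresponds to the filter. The call of 100906_at was lost without anergic array 1 or 2 (-1.37 and -1.43, adjusted p = 0.306 and 0.186) and without an intensity trend (adjusted p = 0.137). It was also lost when dim probe sets were kept (adjusted p = 0.0575) and with arrays centred on their medians (-1.29, adjusted p = 0.0912).

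Itga4, on chromosome 2, encodes the alpha 4 chain, which pairs with the beta 7 or the beta 1 chain. Its 3 probe sets were all lower in anergic cells by sign, and none passed. Probe set 102656_at was at 463.8 and 184.3 in anergic cells, against 598.9 and 272.4 in control cells. Probe set 95292_at was at 154.5 and 360.8 in anergic cells, against 247.3 and 566.8 in control cells. Probe set 102655_at was at 137.8 and 227.5 in anergic cells, against 235.7 and 325.1 in control cells. The arrays numbered 1 were the brighter at the first of these and the arrays numbered 2 at the others, in both groups. At 102656_at and 95292_at the arrays of a group lay farther apart than the groups. Between same-numbered arrays the anergic value was the lower at all 3 probe sets. For arrays 1 and 2 this was by log2 differences of -0.35 and -0.50, -0.59 and -0.61, and -0.67 and -0.46, though no label names such a pairing. The groups overlapped at 102656_at and 95292_at and stood just apart at 102655_at. In limma, without pairing, the log2 differences were -0.42 ± 0.50, -0.60 ± 0.49 and -0.57 ± 0.39 (SE), with adjusted p between 0.675 and 0.865.

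Itgae, on chromosome 11, encodes the alpha E chain (CD103), the partner of beta 7 on T cells within epithelia. It was below the filter at both probe sets and was not tested. Probe set 93961_at was at 42.6 and 67.5 in anergic cells, against 50.2 and 95.3 in control cells. Probe set 161730_f_at was at 7.9 and 5.9 in anergic cells, against 8.3 and 13.3 in control cells. At neither probe set was an anergic array above both control arrays, at intensities where a change could not be tested.

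The stretch before the gene start is given for the alpha 4 chain and both of its beta partners, since the beta 7 gene fell and the beta 1 gene, described next, was not called. RefSeq windows on GRCm38.p6 were matched for 4 of the 8 genes, Itgb7, Itga4, Itgb1 and Itgav, and the 250 bases before the start are shown 5′ to 3′ on the strand of the gene. Capitals mark CAGAC or its complement GTCTG, the letters of a Smad box, to which the transcription factors of TGF-beta signalling bind. The Itgb7 window is chr15:102231936-102232185 on the minus strand, the Itga4 window is chr2:79255176-79255425 on the plus strand and the Itgb1 window is chr8:128685404-128685653 on the plus strand.
Itgb7: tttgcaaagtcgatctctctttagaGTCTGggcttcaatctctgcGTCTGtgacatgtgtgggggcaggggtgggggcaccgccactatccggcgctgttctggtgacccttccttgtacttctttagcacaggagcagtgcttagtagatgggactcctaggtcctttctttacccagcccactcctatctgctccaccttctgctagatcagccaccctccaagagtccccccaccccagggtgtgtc
Itga4: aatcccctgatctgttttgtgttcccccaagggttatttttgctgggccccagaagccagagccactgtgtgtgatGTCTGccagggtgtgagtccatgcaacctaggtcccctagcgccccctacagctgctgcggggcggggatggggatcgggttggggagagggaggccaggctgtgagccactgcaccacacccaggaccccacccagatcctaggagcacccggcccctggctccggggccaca
Itgb1: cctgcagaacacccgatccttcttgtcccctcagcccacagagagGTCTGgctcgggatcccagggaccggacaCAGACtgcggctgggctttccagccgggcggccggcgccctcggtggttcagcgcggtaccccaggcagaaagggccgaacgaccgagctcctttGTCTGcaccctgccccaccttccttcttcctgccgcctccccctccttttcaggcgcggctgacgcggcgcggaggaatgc

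The Smad box letters occurred 2 times in the Itgb7 window, 1 time in that of Itga4, 3 times in that of Itgb1 and 0 times in that of Itgav. They occurred on either strand in 42.2% of the 32851 windows of this length in the table. The Ets core GGAA was in all 4 windows, 1 time each for Itgb7 and Itga4 and 4 times each for Itgb1 and Itgav, and in 93.4% of all windows. The Runx letters TGTGGT were in the Itga4 window alone (1 match) and in 14% of all windows, and the GC box GGGCGG was in those of Itga4 and Itgb1 (1 match each) and in 32.7% of all. The AP-1 letters TGANTCA, the Myc E-box CACGTG and TATAAA were in none of the 4, against 6.75%, 6.02% and 12.4% of all windows. No marked Smad box match overlapped a match of another motif. The Itgb7 window was 56% G and C, lower than the 64% of Itga4, 68% of Itgb1 and 64.4% of Itgav. A match of letters is a description of the window and not a binding site.

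Itgb1, on chromosome 8, encodes the beta 1 chain of the VLA integrins. Probe set 100123_f_at was at 4796.7 and 4596.4 in anergic cells, against 4330.0 and 4147.2 in control cells. All 4 arrays lay close together, and the anergic arrays were slightly above the control arrays. The log2 difference was 0.15 ± 0.21 (SE, limma adjusted p = 0.893), with a 95% interval of -0.34 to 0.63. Probe set 100124_r_at was at 811.6 and 799.0 in anergic cells, between the 630.8 and 977.8 of control cells. Its log2 difference was 0.03 ± 0.29 (SE, adjusted p = 0.982), with a 95% interval of -0.64 to 0.71. The intervals leave out a change as large as that of Itgb7 in its direction, and the difference between the genes was not tested.

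Itgav, on chromosome 2, encodes the alpha V chain, which takes part in vitronectin receptors and in receptors that release active TGF-beta. Probe set 104386_f_at was at 4792.3 and 4176.0 in anergic cells, against 2028.4 and 2477.8 in control cells. Both anergic arrays were above both control arrays. The means were 4484 ± 436 in anergic cells and 2253 ± 318 in control cells (SD, n = 2 each), and the log2 difference was 0.99 ± 0.23 (SE, limma adjusted p = 0.107), a fold of 1.98 that did not pass. Probe set 98366_at was at 203.6 and 270.8 in anergic cells, against 89.4 and 173.1 in control cells. The groups again did not overlap, with a log2 difference of 0.77 ± 0.43 (SE, adjusted p = 0.575). Probe set 104385_i_at, designed on the same sequence record as 104386_f_at, was at 275.8 and 15.1 in anergic cells, against 36.5 and 427.5 in control cells. It was high on 1 array and low on the other in each group, and its log2 difference of -0.58 ± 1.07 (SE, adjusted p = 0.919) has a 95% interval of -3.02 to 1.87. The log2 difference of 104386_f_at was 0.84 ± 0.27 without control array 1 and 1.13 ± 0.28 without control array 2 (SE). Without anergic array 1 it was 0.89 ± 0.36, and without anergic array 2 it was 1.09 ± 0.37 (SE).

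Itgb3, on chromosome 11, encodes the beta 3 chain, which joins alpha V in the vitronectin receptor and alpha IIb on platelets. Probe set 99904_at was at 20.7 and 75.5 in anergic cells, against 8.6 and 84.3 in control cells, below the filter. The groups overlapped, and the arrays numbered 2 were the brighter. Of 4 megakaryocyte and platelet marker genes on the array 1 had a probe set above the filter, and their 5 probe sets summed to 201.9 and 288.6 in anergic cells and to 290.9 and 286.1 in control cells. The beta 5 chain gene Itgb5, another partner of alpha V, was at 141.1 and 258.0 in anergic cells and at 194.6 and 162.5 in control cells at its brighter probe set (adjusted p = 0.97).

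**Figure D2:**
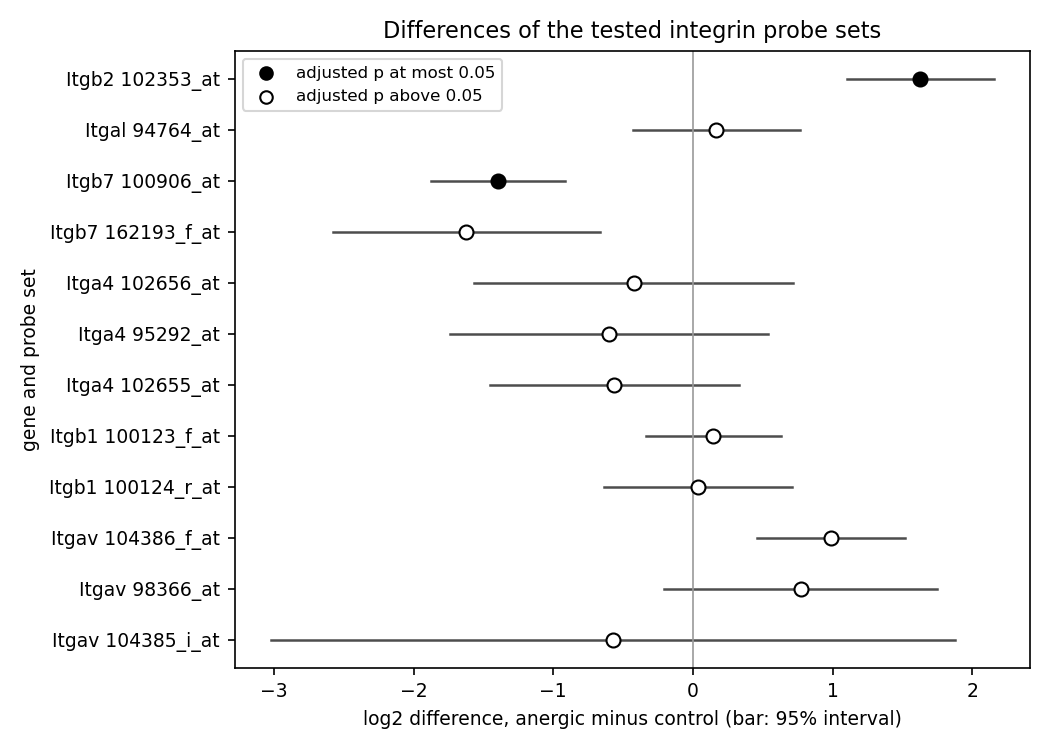
Log2 difference, anergic minus control, of the 12 tested integrin probe sets, with 95% intervals from limma; filled points passed the adjusted threshold. Itgb2 at 1.63 and Itgb7 at -1.40 passed, and the second Itgb7 probe set at -1.62 and the bright Itgav probe set at 0.99 have intervals that leave out 0 without passing.

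**Figure D3:**
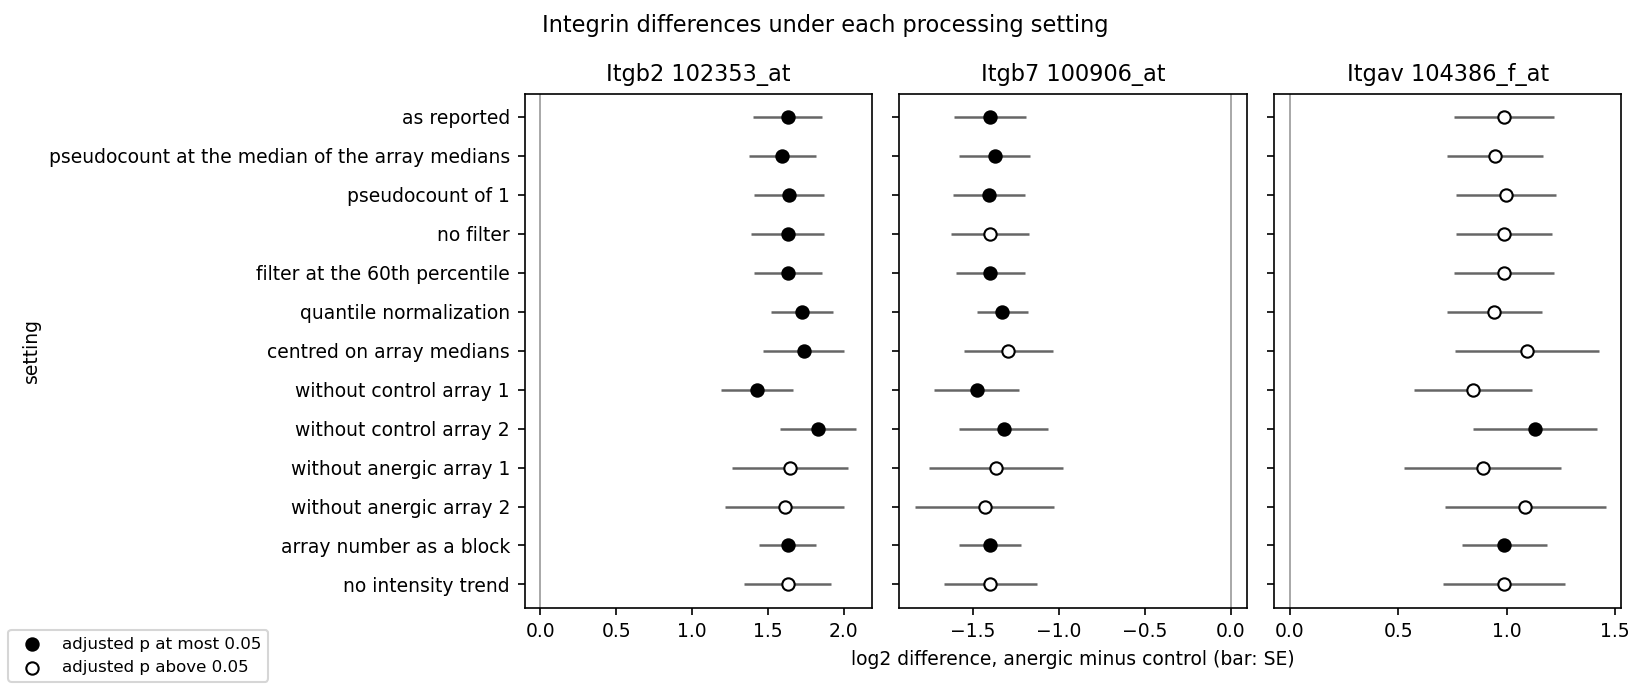
Log2 difference, anergic minus control, and its SE for Itgb2, Itgb7 and the bright Itgav probe set under each processing setting; filled points have an adjusted p of at most 0.05. The differences stay between 1.43 and 1.83 for Itgb2, between -1.48 and -1.29 for Itgb7 and between 0.84 and 1.13 for Itgav.

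In the plot of settings these differences kept their sign in each setting, while the side of the threshold varied. The arrays of the groups did not overlap at these probe sets, so leaving out an array or changing the pseudocount could not reverse the sign. The filter, block and trend settings leave the difference itself unchanged. The constant sign is therefore largely fixed by the values and is no separate support. Itgb2 passed under 9 of 12 alternatives, Itgb7 under 7 of 12 and the bright Itgav probe set under 2 of 12.

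Of 19 other integrin subunit genes 10 were on the array, with 15 probe sets. Only 6 probe sets, of 4 genes, passed the filter, and 0 were called by limma, with 0 at an unadjusted p under 0.05 (11.3% over all tested probe sets). Besides Itgax and Itgb5, the smallest p-values were those of Itga7, the muscle laminin receptor gene (0.25 ± 0.43, SE, adjusted p = 0.915), whose other tested probe set had the opposite sign (-0.28 ± 0.51, SE, adjusted p = 0.919). The median log2 difference of the 6 was 0.07, against -0.09 for all tested probe sets.

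Of 48 listed genes that switch integrins on or link them to actin, 33 were on the array and 27 were tested with 36 probe sets, and 0 passed in limma, with 2 at an unadjusted p under 0.05. Over all tested probe sets 1.34% passed and 11.3% were at that level. Actn4, which encodes an alpha-actinin that crosslinks actin at adhesion sites, was at 3344.5 and 3218.6 in anergic cells against 1600.2 and 1043.6 in control cells (log2 difference 1.32 ± 0.27, SE, adjusted p = 0.065). Actn1, encoding another alpha-actinin, had a log2 difference of 0.80 ± 0.34 (SE, adjusted p = 0.438) at 104578_f_at. Itgb1bp1, encoding a protein that binds the beta 1 tail, was at 0.58 ± 0.26 (SE, adjusted p = 0.441) at 1 probe set, at 0.16 at another and at -0.55 at the third. Fermt3, encoding the kindlin that leukocytes need to activate integrins, was at 2589.6 and 2811.3 in anergic cells and at 2195.8 and 2985.4 in control cells. Tln1 encodes the talin that opens the integrin by binding the beta tail. At 99448_at it was at 2322.5 and 3192.2 in anergic cells and at 2289.0 and 2461.8 in control cells (limma adjusted p = 0.879). Its other tested probe sets had the opposite sign, with log2 differences of -0.15 at the brighter 162089_r_at and -0.07 at 102732_at. By sign 14 probe sets were higher and 22 lower, with a median of -0.11.

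Of 19 ligand genes on the array 10 were tested with 10 probe sets, 1 passed as higher and 9 did not pass. Over all tested probe sets 1.34% passed, 0.912% as higher. In limma 3 of the ligand probe sets had an unadjusted p under 0.05, a level that 11.3% of all tested probe sets reached. F11r, encoding the junctional adhesion molecule JAM-A that LFA-1 can bind, was at 1964.2 and 1673.8 in anergic cells against 91.7 and 129.7 in control cells (log2 difference 3.73 ± 0.30, SE, adjusted p = 0.00125). Icam1, encoding the main LFA-1 ligand, was at 1268.8 and 1430.6 in anergic cells against 677.0 and 968.6 in control cells. The groups did not overlap, as in 40.3% of all tested probe sets. The log2 difference of 0.71 ± 0.27 (SE) did not pass (limma adjusted p = 0.362). Icam5, known as a neuronal ligand of LFA-1, was dimmer, at 219.5 and 462.6 in anergic cells against 20.5 and 132.6 in control cells (1.96 ± 0.62, SE, adjusted p = 0.255). The 10 ligand probe sets had a median of 0.13.

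Of 18 membrane partners and other adhesion receptors on the array 15 were tested with 19 probe sets, and 0 passed in limma, with 3 at an unadjusted p under 0.05, beside the 11.3% of all tested probe sets. The 3, all higher by sign in anergic cells, are Cd81, Cd99 and Cd82. The tetraspanin gene Cd81 was at 963.3 and 774.8 in anergic cells against 300.3 and 370.0 in control cells (1.30 ± 0.29, SE, adjusted p = 0.0952). Cd99, encoding an adhesion molecule used in passage through endothelium, was at 0.84 ± 0.25 (SE, adjusted p = 0.211). Cd82, another tetraspanin gene, was at 0.63 ± 0.23 (SE, adjusted p = 0.334) at 99584_at and at 0.13 at its other tested probe set. The list had a median of 0.13.

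TGF-beta is the textbook inducer of the alpha E chain, so its pathway was read beside Itgae and Itgb7. Of 14 regulator genes on the array 9 were tested with 9 probe sets, 1 passed as higher and 8 did not pass. Over all tested probe sets 1.34% passed, 0.912% as higher. In limma 3 of the regulator probe sets had an unadjusted p under 0.05, a level that 11.3% of all tested probe sets reached. Tgfb1, encoding the cytokine, was at 2829.3 and 2669.0 in anergic cells against 1004.0 and 1011.9 in control cells (log2 difference 1.42 ± 0.23, SE, adjusted p = 0.0276). Ski, encoding a repressor of Smad signalling, was at 842.7 and 1218.3 in anergic cells against 2617.8 and 1752.9 in control cells (-1.06 ± 0.30, SE, adjusted p = 0.188). Smad4, the shared Smad gene, was at -0.68 ± 0.26 (SE, adjusted p = 0.353). The list had a median of -0.25. The receptor genes Tgfbr1 and Tgfbr2 were below the filter.

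**Figure D4:**
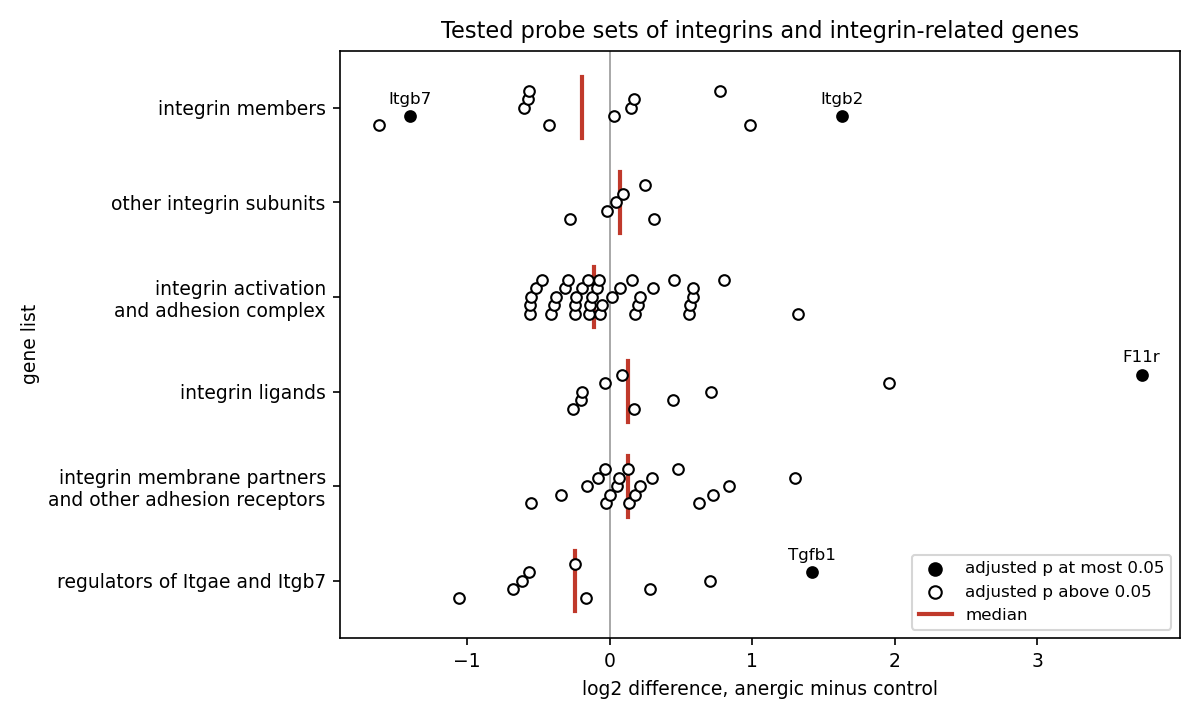
Log2 difference, anergic minus control, of each tested probe set of the integrins and of 5 related gene lists; filled points passed the adjusted threshold and red bars are medians. Itgb2, F11r and Tgfb1 passed as higher and Itgb7 as lower, and the list medians lie between -0.25 and 0.13.

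Markers of B cells and of stroma were also summed. The 28 probe sets of 9 B cell marker genes summed to 1428.3 and 2175.1 in anergic cells and to 1536.4 and 3030.8 in control cells, and 5 of the 9 genes had a probe set above the filter. The 17 probe sets of 11 fibroblast and stromal marker genes summed to 13371.6 and 14806.5 in anergic cells and to 17225.2 and 15576.9 in control cells, a sum that includes Thy1, which mouse T cells also express. Without Thy1 the sum was 6070.9 and 6285.7 in anergic cells and 3785.1 and 4919.3 in control cells. Its brightest probe set was that of Lum, a matrix proteoglycan gene, which was the largest part of this sum on each array. Lum was at 4398.5 and 3751.6 in anergic cells against 1673.6 and 2519.2 in control cells (log2 difference 0.97 ± 0.26, SE, limma adjusted p = 0.172). The next brightest, Col1a2 at 161156_r_at, overlapped, at 1015.5 and 1584.4 in anergic cells against 1242.1 and 1412.3 in control cells. The difference in the sum therefore does not describe the stromal markers as a set. None of the 7 tested B cell probe sets and none of the 5 tested stromal probe sets passed in limma. At an unadjusted p under 0.05, which 11.3% of all tested probe sets reached, there were 0 B cell and 2 stromal ones, Lum higher and Thy1 lower by sign, and the part of such cells in the integrin differences was not tested.

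The probe sets most like each integrin over the 4 arrays were found by the Euclidean distance between log2 values after centring each on its mean. For Itgb2 these were Abcc1, a drug and leukotriene exporter gene (distance 0.083), and Cd200, an inhibitory ligand gene (0.10), with log2 differences of 1.63 and 1.71. For Itgb7 they were Ptpn6, the SHP-1 phosphatase gene (0.059), and Smpdl3a, a phosphodiesterase gene (0.15), with log2 differences of -1.42 and -1.25. For Itgal they were Usp34 (0.049) and Rasgrp2 (0.06), and for Itgb1 Snapc2 (0.023) and Grcc10 (0.032). For Itga4 they were Eif5 (0.14) and Lef1 (0.15), and for Itgav Sdf4 (0.055) and Mrps25 (0.058). With 4 arrays and 7453 probe sets many patterns are close by, and the distances are given as a description.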

How the data were processed

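The authors deposited 1 intensity per probe set and array on a linear scale. The near-equal trimmed means show that the values were scaled before deposit; no source used here names the scanner software, the background correction or the probe summary. Probe sets were named from the platform annotation, and the 8 gene symbols were unchanged by gene ID in RefSeq. A listed gene is counted as on the array when a probe set names it alone. The 396 probe sets with several symbols and the 1193 without one were not counted for any gene. The 66 control probe sets were left out. Intensities were taken as log2(value + 29.26), the pseudocount being the median of the arrays' 20th percentiles, so fold changes of dim probe sets are understated. The groups were tested in R 4.3.3 by the limma package (version 3.58.1), using lmFit followed by a trended eBayes, two-sided, with Benjamini-Hochberg adjustment over all 7453 probe sets kept. Each fit had 2 residual and 6.17 prior degrees of freedom. The script was tested on simulated data. All adjusted p-values come from limma.

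The genes, lists and tests were chosen with earlier results of these data known. The text names every probe set of the 8 genes; of each related list, the genes that passed and the 3 with the smallest p; and, for each gene tested, the 2 other genes most like its brightest probe set. Alternatives were the pseudocount, the filter, quantile normalization, centring, each array left out, the array number as a block, and no intensity trend. Samples carry no depth; the number of arrays limits precision.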

Additional observations from a re-analysis of the deposited data

How the results depend on the processing

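The direction of Itgb2, both Itgb7 probe sets, Itgb1 100123_f_at, Itga4 95292_at and 102655_at, and 2 of the 3 Itgav probe sets was the same under every alternative that could be fitted. At all of these but Itga4 95292_at the groups did not overlap, so leaving out an array could not change the direction. The filter, block and trend settings do not change the log2 difference of any probe set, so part of this agreement was fixed in advance. Of 138 values of single integrin probe sets under alternatives, 122 kept their direction and their side of the threshold, 8 lost a call, 3 gained one and 5 changed direction, none of these 5 being called. With 1 array left out in turn, the log2 difference ranged from -0.0861 (without anergic array 2) to 0.4236 for Itgal, from -0.2711 (without control array 1) to 0.3384 for Itgb1 100124_r_at, from -1.0274 to 0.1797 (without anergic array 2) for Itga4 102656_at, which was also above 0 without control array 1 (0.1053), and from -1.9732 to 0.8157 (without anergic array 2) for Itgav 104385_i_at, which fell below the filter without control array 2 or anergic array 1. The 2 integrin calls became 1 with no filter and with centring on array medians, 0 without an intensity trend, and between 0 and 3 with 1 array left out. With 1 array left out, the spread of the lone array is assumed to be that of the other group. Over all probe sets the 100 calls, 68 higher and 32 lower, became 59 with no filter (42 and 17), 64 with centring (52 and 12) and 38 without an intensity trend (28 and 10). Leaving out 1 array gave between 43 and 344 calls, with between 26 and 208 higher and between 17 and 136 lower. With the replicate number as a block there were 761 calls (389 and 372), 4 of them integrins, where the second Itgb7 probe set (adjusted p = 0.00601) and the bright Itgav probe set (adjusted p = 0.00598) also passed. Deviations from the group mean of same-numbered arrays correlated at 0.537 across probe sets, so these arrays share part of their signal. With 2 pairs and no label for the number, the source of that shared signal is not known. The cause of these changes was not tested. Itgae and Itgb3 lay below the filter, and no background level was measured for them here.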
